A study of Mus musculus with 4 samples.

Results

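A three-anchor loop triangle is a set of 3 chromatin anchors A, B and C, in order along a chromosome, that are joined pairwise by called loops A-B, B-C and A-C. The loops A-B and B-C are named arms here, and A-C is named the closing loop. Triangles were found in lists of Micro-C loops from mouse granulosa cells, the cells that surround the oocyte in the ovarian follicle. In each list, loop anchors that overlapped or lay within 10 kb of each other were merged, and all triples of merged anchors with 3 loops were taken. Triangles of different lists were the same if all 3 anchor midpoints lay within 20 kb. This gave 1251 distinct triangles, out of lists that together held 12920 distinct loops. Triangles were chosen by the loop calls themselves, so the number of lists that hold a triangle is a description and was not tested.

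The mice, 21 days old, were all primed with 5 IU of eCG (equine chorionic gonadotropin, the PMSG of the sample names), for 46 h per the sample characteristics and 44 h per the treatment protocol. The PMSG group, with 2 libraries, is given as 0 h after human chorionic gonadotropin (hCG), with no hCG dose. The hCG group, with 2 libraries, was taken 6 h after 5 IU of hCG, a stand-in for the surge of luteinizing hormone (LH) that starts ovulation. Each library has 1 list of loops, and the labels do not say whether libraries came from different mice, so their p-values may measure technical spread alone. The lists held 8305 and 6533 loops for PMSG and 7664 and 7935 for hCG, and their called pixels summed to 393852, 272470, 311016 and 349717 contacts. The deposited lists hold no expression values, so the labelled cell type could be checked only by which marker genes lie at anchors, and that is no measure of expression.

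Most loops of mammalian genomes form when cohesin extrudes chromatin until it meets CTCF, and others join promoters with enhancers. Anchors that share partners pairwise are often called hubs or cliques, and a middle anchor can divide a larger loop into smaller ones. Contacts are summed over many cells, so 3 pairwise loops do not show that 3 anchors meet in 1 cell. In granulosa cells, the C/EBP factors, Runx1 and the epidermal growth factor (EGF)-like ligands act in the response to LH, whereas Inhba, Foxl2 and Gata4 belong to the growing follicle.

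The promoters of 6 genes at the corners of triangles in both lists of 1 group only are shown, because the account of single loci turns on them. They are the windows from 250 bases before to 50 after the annotated start, in RefSeq on GRCm38.p6 (the assembly of mm10), written 5′ to 3′ on the strand of the gene. For Runx1, the start that lies inside an anchor is shown. Capitals mark matches on either strand. The core of the CTCF motif was searched as CCNNNAGNNGGC and the C/EBP motif as TTNNGCAA. Runt factors were searched as TGTGGT. For the GATA family the letters were AGATAA. Part of the cAMP response element was searched as TGACG. The letters of the GC box were GGGCGG. The CCAAT box was searched by its name, and the TATA box as TATAAA. Matches can overlap, such as those to the CTCF core and the GC box.
Cebpa, chr7:35119043-35119342, plus strand: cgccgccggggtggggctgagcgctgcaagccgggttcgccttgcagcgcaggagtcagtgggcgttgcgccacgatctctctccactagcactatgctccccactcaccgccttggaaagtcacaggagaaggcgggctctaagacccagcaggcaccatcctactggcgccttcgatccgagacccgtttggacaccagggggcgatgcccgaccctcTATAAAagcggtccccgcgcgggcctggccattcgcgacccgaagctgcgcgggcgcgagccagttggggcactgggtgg
Cebpb, chr2:167688665-167688964, plus strand: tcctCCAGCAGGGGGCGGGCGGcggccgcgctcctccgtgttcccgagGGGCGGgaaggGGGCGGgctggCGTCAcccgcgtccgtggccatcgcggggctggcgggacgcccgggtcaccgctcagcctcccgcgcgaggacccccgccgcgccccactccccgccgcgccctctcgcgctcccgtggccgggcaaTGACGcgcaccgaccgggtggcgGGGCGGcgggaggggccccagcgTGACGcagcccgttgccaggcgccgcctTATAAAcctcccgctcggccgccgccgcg
Epgn, chr5:91027267-91027566, plus strand: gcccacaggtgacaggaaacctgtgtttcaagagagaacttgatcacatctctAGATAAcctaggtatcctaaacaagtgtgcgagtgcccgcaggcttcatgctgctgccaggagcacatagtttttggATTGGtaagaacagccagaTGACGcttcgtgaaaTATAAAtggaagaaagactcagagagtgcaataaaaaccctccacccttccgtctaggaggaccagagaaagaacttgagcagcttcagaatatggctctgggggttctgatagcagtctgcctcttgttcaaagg
Runx1, chr16:92697280-92697579, minus strand: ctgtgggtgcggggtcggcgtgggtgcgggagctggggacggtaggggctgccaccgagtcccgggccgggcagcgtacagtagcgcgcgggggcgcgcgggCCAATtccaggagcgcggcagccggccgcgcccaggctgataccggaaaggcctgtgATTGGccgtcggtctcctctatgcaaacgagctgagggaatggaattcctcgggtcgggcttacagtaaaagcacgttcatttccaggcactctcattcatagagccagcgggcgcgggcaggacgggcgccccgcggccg
Inhba, chr13:16011601-16011900, plus strand: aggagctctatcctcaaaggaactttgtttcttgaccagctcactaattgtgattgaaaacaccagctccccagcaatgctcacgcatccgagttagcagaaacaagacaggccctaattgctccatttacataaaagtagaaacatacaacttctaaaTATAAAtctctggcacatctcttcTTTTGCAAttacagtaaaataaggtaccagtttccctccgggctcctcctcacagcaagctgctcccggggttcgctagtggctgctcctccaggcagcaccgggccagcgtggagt
Foxl2, chr9:98955357-98955656, plus strand: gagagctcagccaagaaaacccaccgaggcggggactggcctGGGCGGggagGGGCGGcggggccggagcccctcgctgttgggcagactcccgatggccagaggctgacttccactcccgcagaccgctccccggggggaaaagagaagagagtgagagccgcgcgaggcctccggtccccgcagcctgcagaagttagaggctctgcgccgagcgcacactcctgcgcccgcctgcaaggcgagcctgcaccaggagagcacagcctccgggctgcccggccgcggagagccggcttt
A TATA box match was found in the windows of Cebpa, Cebpb, Epgn and Inhba, and the window of Cebpb also held 5 GC box matches, 3 matches to the cAMP response element letters and 1 match to the CTCF core, which overlaps a GC box. The Inhba window held 1 C/EBP match and the Runx1 window 2 CCAAT matches. A match describes letters and is no evidence of binding.

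The first question was whether hCG changed how many loops closed into triangles. Triangles numbered 624 and 368 in the PMSG lists and 513 and 572 in the hCG lists, in the same order as list length. Per 1000 loops the numbers were 75.1 and 56.3 for PMSG and 66.9 and 72.1 for hCG. The group means were 65.7 ± 13.3 (SD, n = 2) and 69.5 ± 3.64 (SD, n = 2), a difference of 3.78 with overlapping groups (exact permutation test over libraries, two-sided, p = 1). Without PMSG replicate 2 the difference was -5.62, so its sign rested on that list. Lists of different length were also compared by chains, which are pairs of loops A-B and B-C that share the middle anchor. Of 2596, 1692, 2336 and 2480 chains in PMSG replicates 1 and 2 and hCG replicates 1 and 2, a closing loop was called for 24.0%, 21.7%, 21.96% and 23.1%. The difference of group means was -0.381 percentage points (exact permutation test, two-sided, p = 1), and it was 0.763 without PMSG replicate 1 and 0.171 without hCG replicate 1. With anchors merged only where they overlap, the shares were 23.0% and 24.1% for PMSG and 16.6% and 20.4% for hCG, a difference of -5.04 points with no overlap of the groups. With lists of equal length the groups were also apart, at -1.68 points. The size of the difference in closed chains therefore depended on the merging of anchors, and no p under 0.33 was possible in any setting. Loops that formed sides of triangles accounted for 20.3% and 15.5% of all loops under PMSG, and for 18.5% and 19.8% under hCG.

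**Figure D1:**
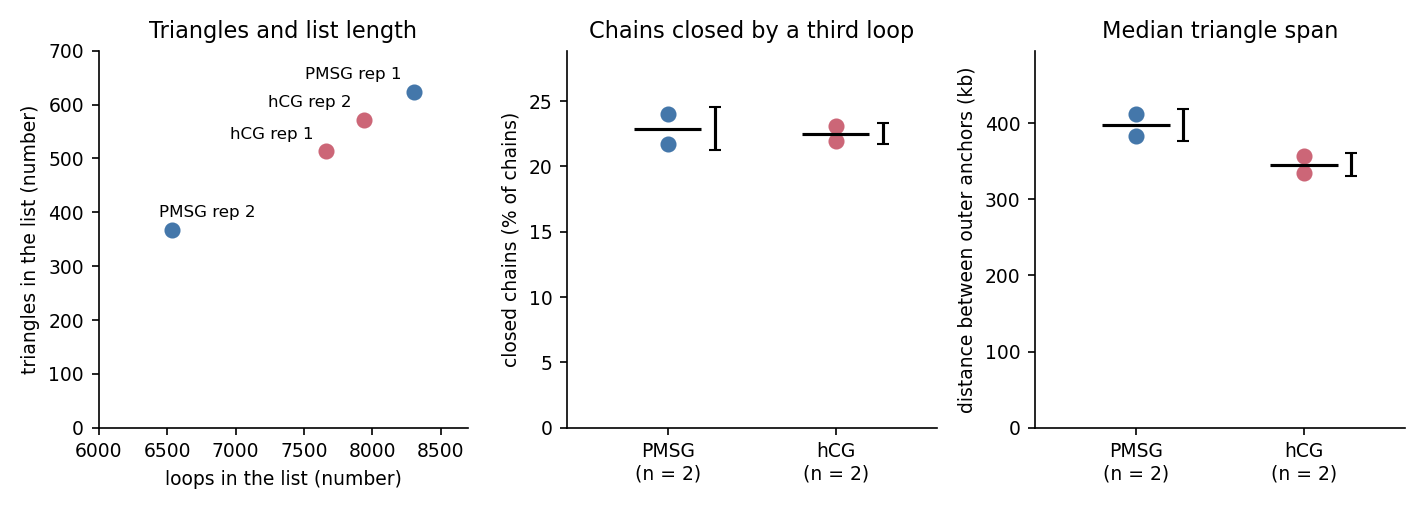
Triangles against loops per list (left), the share of chains with a closing loop (middle) and the median distance between outer anchors in kb (right), with 1 point per library, group means as lines and SD as bars beside them (n = 2 per group). The 4 lists lie in the order of their length in the left panel, and the groups overlap in the middle panel but not in the right one.

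Triangles of the hCG lists reached less far. The distance between the midpoints of the outer anchors had a median of 382.5 and 412.5 kb in the PMSG lists and 335 and 356.25 kb in the hCG lists. Both hCG libraries lay below both PMSG libraries, at 345.6 ± 15.03 kb against 397.5 ± 21.2 kb (SD, n = 2 each). The difference was -51.9 kb, with p = 0.33 in the exact permutation test (two-sided), which is the smallest value that 2 libraries against 2 allow. With anchors merged only where they overlap the groups did overlap, at medians of 450 and 448.75 kb against 400 and 450 kb. Both arms were shorter as well, since the shorter arm had medians of 130 and 140 kb against 112.5 and 120 kb, and the longer arm 237.5 and 261 kb against 210 and 222.5 kb. Loops outside triangles had medians of 170 and 180 kb in the PMSG lists and 150 kb in each hCG list, so the same order held for them. Among PMSG triangles 7.69% and 8.15% spanned more than 1000 kb, and among hCG triangles 5.26% and 6.47%. The shorter arm lay upstream in 46.2% to 50.8% of triangles. Within a list the shorter arm was, at the median, 0.591 to 0.623 of the longer.

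Over the whole genome few triangles recurred. Of the 1251, 98 (7.83%) were found in all 4 lists and 132 (10.6%) in 3, while 753 (60.2%) were found in 1 list. Among distinct loops 29.9% were in all 4 lists and 39.97% in 1. A triangle needs 3 calls in the same list, so these shares differ by construction. Both hCG lists and neither PMSG list held 77 triangles (6.16%), named hCG-only here, beside 5.05% of distinct loops with that pattern. Both PMSG lists and neither hCG list held 52 (4.16%), named PMSG-only, beside 3.8% of distinct loops. The remaining 139 were in 1 list of each group. They sum over 4 pairs of lists, whereas each group-only class is 1 pair, so the totals are not comparable. PMSG replicate 1 shared 36 of them with hCG replicate 1 and 65 with hCG replicate 2. For PMSG replicate 2 the numbers were 17 and 21. Single sides were counted as shares of the loops of each list, which are not comparable with the shares of distinct triangles. Of the side loops, 52.8% and 64.9% in the PMSG lists and 54.0% and 53.9% in the hCG lists were found in all 4 lists, against 46.1%, 58.7%, 50.6% and 48.5% of the loops outside triangles. Arms recurred more than closing loops under PMSG, and less under hCG. Arms were found in all 4 lists in 57.8% and 67.4% of cases in the PMSG lists and 52.6% and 54.1% in the hCG lists, and closing loops in 43.5% and 60.1% against 58.6% and 55.5%.

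**Figure D2:**
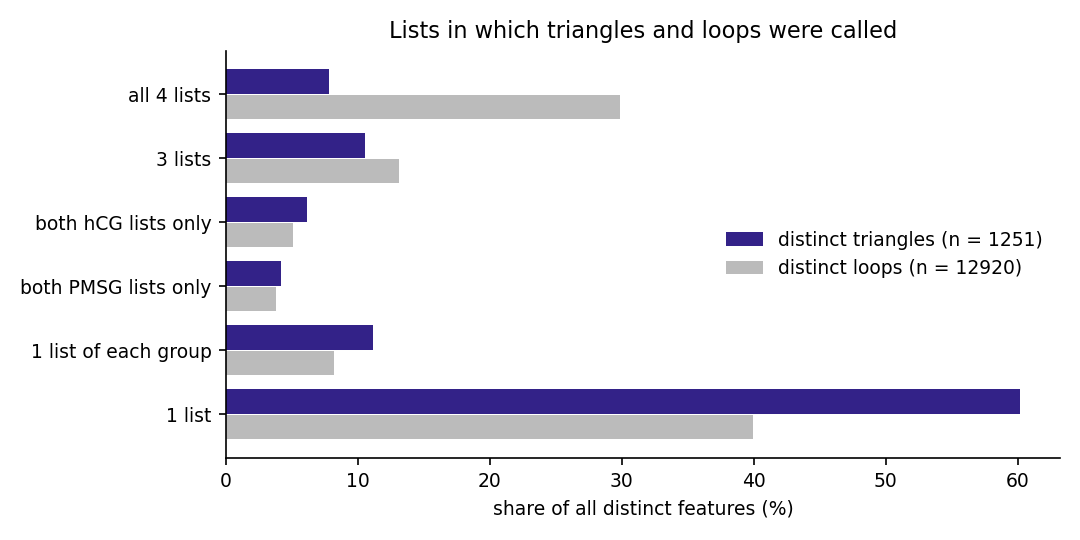
Share (%) of the 1251 distinct triangles and of the 12920 distinct loops by the lists in which they were called. All 4 lists held 7.83% of triangles and 29.9% of loops, and 1 list held 60.2% and 39.97%.

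Near-misses of the match distance were few among the group-only triangles. Matched triangles differed by a median of 7.5 kb at the anchor that differed most, and 142 of 1252 matched pairs differed there by more than 15 kb. A triangle of the other group lay within 50 kb of 2 of the 77 hCG-only and 3 of the 52 PMSG-only triangles, the nearest at 22.5 kb in each class, just outside the match distance. The triangles are also not independent of each other, since some share anchors. The 77 hCG-only triangles fell into 73 loci and the 52 PMSG-only triangles into 45, of which 1 held 8. The hCG-only class had a median span of 326 kb and the PMSG-only class of 423 kb, while triangles of all 4 lists also had 423 kb. A protein-coding gene end lay within 2.5 kb of the middle anchor in 39 of 77 hCG-only (50.6%), 16 of 52 PMSG-only (30.8%) and 42 of 98 triangles of all 4 lists (42.9%), against 53.2% of all 1251.

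The group-only triangles were next followed side by side into the lists of the other group. In most cases some sides were called there. Of the 77 hCG-only triangles, PMSG replicate 1 held 2 sides of 47, 1 side of 21, none of 3 and all 3 sides of 6. PMSG replicate 2 held 2 sides of 39, 1 side of 28, none of 9 and all 3 sides of 1. Where all sides were matched but no triangle was found, the loops met different merged anchors. The closing loop was the side called most often: it was present for 57 (74.0%) and 51 (66.2%) of the 77, whereas A-B was present for 36 (46.8%) and 25 (32.5%) and B-C for 40 (51.9%) and 33 (42.9%). For 70 of the 77 a same side was missing from both PMSG lists, and this was an arm for 61 and the closing loop for 17.

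The 52 PMSG-only triangles had no such order among their sides. In hCG replicates 1 and 2 the closing loop was called for 27 (51.9%) and 29 (55.8%), A-B for 29 (55.8%) and 28 (53.8%), and B-C for 31 (59.6%) and 25 (48.1%). The hCG lists held 2 sides of 38 and 32 of these triangles, 1 side of 11 and 12, none of 3 and 6 and all 3 sides of 0 and 2. A same side was missing from both hCG lists for 43, an arm for 33 and the closing loop for 17. No contact count is given for a side that was not called, so its absence may reflect a contact just below the calling thresholds. The shares rest on calls that also chose the classes, and the difference between the classes was not tested.

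**Figure D3:**
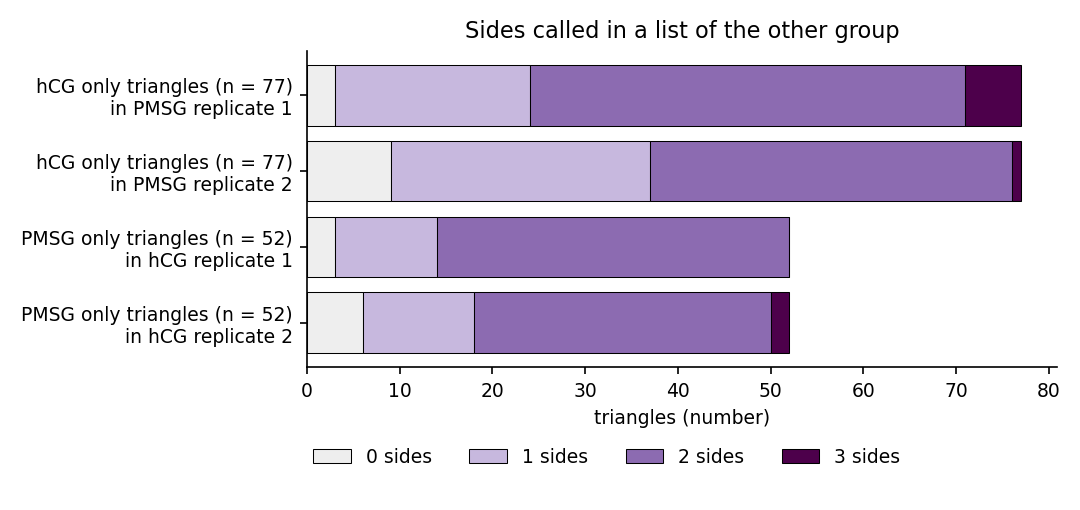
Number of group-only triangles by how many of their 3 sides were called in each list of the other group (77 hCG-only triangles in the PMSG lists, 52 PMSG-only triangles in the hCG lists). The largest block in each bar is 2 sides, with 47, 39, 38 and 32 triangles from top to bottom.

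The granulosa cell transcription factors Cebpa, Cebpb, Runx1 and Gata4 each lay at an hCG-only triangle, and Foxl2 and Gata4 at a PMSG-only one. The share of all genes at such triangles was not counted, so these loci are a description. Cebpa encodes the CCAAT-binding factor C/EBPα and was the only gene with an end at the middle anchor of its triangle (A chr7:35020001-35030000, B chr7:35110001-35125000, C chr7:35170001-35175000, mm10). The closing loop across Cebpa was called in every list, with 51 and 21 contacts under PMSG, where 6.40 and 2.25 were expected from the surrounding donut, and 26 and 39 against 2.59 and 3.56 in the hCG lists. Neither arm was called in a PMSG list. In hCG replicates 1 and 2 the arm A-B had 19 contacts against 3.39 expected in 5 kb bins and 40 against 14.5 in 10 kb bins, and B-C had 19 against 3.84 and 20 against 3.53. The nearest triangle of a PMSG list was 11975 kb away. This class was kept in 6 of 7 other settings of merging, thresholds and matching, all but the merging of overlapping anchors alone.

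Cebpb encodes C/EBPβ, which granulosa cells need to respond to LH, and lay at the outer anchor A of its triangle (A chr2:167670001-167695000, B chr2:167760001-167770000, C chr2:167875001-167900000). Its closing loop was strong in every list, at 62 contacts against 6.68 expected and 18 against 2.21 in PMSG replicates 1 and 2 and 32 against 3.42 and 42 against 4.79 in hCG replicates 1 and 2. The arm from Cebpb to B was called in PMSG replicate 1 at a lower ratio of 2.16, in both hCG lists at 3.67 and 6.11, and not in PMSG replicate 2. The arm from B to C was called in the hCG lists alone, with 40 contacts against 10.03 and 45 against 13.7. A further triangle had Cebpb in its middle and Snai1 upstream, and was found in 1 list of each group. The Cebpb triangle kept its class in 6 of the 7 settings.

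Runx1, a Runt-family factor induced by LH, lay at an hCG-only triangle (A chr16:92550001-92575000, B chr16:92620001-92640000, C chr16:92675001-92710000), and the promoter shown above lies in the downstream anchor C. Anchor B is inside the gene, and the wider anchor B of hCG replicate 1 also reached its downstream end. The arm between these anchors, B-C, was called in the hCG lists with 29 contacts against 9.98 expected and 33 against 12.3, and in no PMSG list. The closing loop, between anchor A and the anchor with the Runx1 promoter, was called in all 4 lists. Its ratios were 2.75, 2.58, 2.29 and 2.32 in the order PMSG replicates 1 and 2 and hCG replicates 1 and 2. The nearest gene named at A, Clic6, ends at position 92541241, and only the wider anchor A of hCG replicate 1 came within 2.5 kb of it. The Runx1 class was kept in only 2 of 7 settings, those of another match distance.

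The EGF-like ligands Epgn and Ereg lie beside each other on chromosome 5, and their triangles had opposite patterns at the match distance used. The hCG-only triangle had Epgn, the gene of epigen, in the middle (A chr5:90950001-90955000 at Mthfd2l, B chr5:91025001-91040000, C chr5:91305001-91310000). The PMSG-only triangle had Ereg, the gene of epiregulin, in the middle (A chr5:90970001-90980000, B chr5:91080001-91090000, C chr5:91300001-91310000). Its anchor B lies inside Ereg, and in PMSG replicate 2 the wider anchor B also covered the ends of the gene. In the hCG lists the arm from Epgn to C had 19 contacts in each library against 3.02 and 3.24 expected, and the closing loop had 14 in each against 1.73 and 1.89. In the PMSG lists the arm from Ereg to C had 33 contacts against 10.8 in a 10 kb bin and 110 against 41.5 in a 25 kb bin, and the closing loop had 31 against 9.58 and 27 against 6.65. No side of either triangle was called in a list of the other group within the match distance. The closing loops nevertheless lay close together. Their upstream anchors, chr5:90950001-90955000 and chr5:90970001-90980000, were just outside that distance, and their downstream anchors overlapped. A long loop of similar position was thus called in every list, and the opposite calls of the closing loops rest on the match distance. The anchor that differed most did so by 47.5 kb, and both triangles lost their class when the match distance was 50 kb. The Epgn triangle kept its class in 2 of 7 settings and the Ereg triangle in 3.

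Gata4, a zinc-finger factor of granulosa cells, likewise had a triangle in each group, and both ran between overlapping outer anchors. The upstream anchor contained chr14:63065001-63070000 and the downstream anchor at Blk, a gene of a Src-family kinase. In the PMSG-only triangle the middle anchor was chr14:63240001-63275000, at one end of Gata4, and in the hCG-only triangle it was chr14:63195001-63205000, at the other end of Gata4 and at Neil2. The closing loop was shared by all 4 lists, with 21, 14, 18 and 15 contacts against 3.43, 1.62, 1.88 and 2.45 expected. The arm from the first middle anchor upstream had 55 contacts against 14.6 and 28 against 6.25 in the PMSG lists and was not called in the hCG lists. The arm from the second upstream was called with 20 against 3.10 and 25 against 4.54 in the hCG lists and also, at 71 against 19.3, in PMSG replicate 1. Among hCG-only triangles with a gene in the middle this one had the highest smallest ratio, 5.51. Each of the Gata4 triangles kept its class in 3 of 7 settings.

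**Figure D4:**
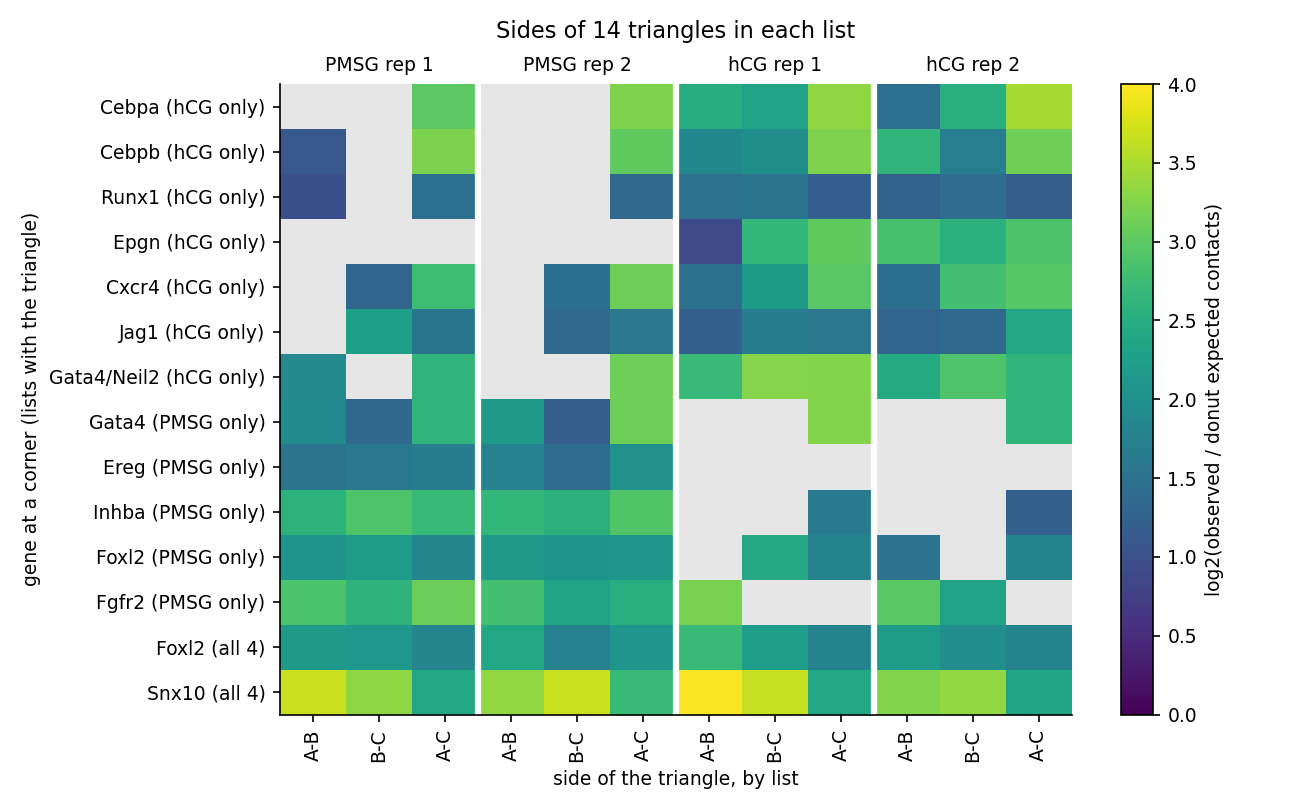
Sides of 14 triangles in each list, coloured by log2 of observed over donut expected contacts, with grey where no loop was called at that side. The closing loop A-C of the Cebpa, Cebpb and Runx1 triangles is coloured in all 4 lists, at least 1 arm is grey in both PMSG lists, and the Inhba triangle lacks both arms in the hCG lists.

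Inhba, which encodes the βA subunit of activin and inhibin, stood at the outer anchor of 6 PMSG-only triangles, the most at any locus of this class. With 2 more among the downstream anchors they formed the locus of 8. From Inhba (chr13:15975001-16035000) loops ran to anchors that start at positions 16280001, 16335001, 16450001, 16650001 and 17425001, none of which had a gene end. The triangle of highest smallest ratio, 5.94, joined Inhba with chr13:16325001-16350000 and chr13:16450001-16475000. Its arm from Inhba had 18 and 14 contacts under PMSG, where 2.99 and 2.22 were expected, the arm between the downstream anchors 32 and 19 against 4.28 and 3.20, and the closing loop 15 and 30 against 2.35 and 3.997. In the hCG lists neither arm was called, and the closing loop was called in 25 kb bins with 87 contacts against 27.9 and 78 against 33.5. In the other 5 PMSG-only triangles of Inhba the arm between the downstream anchors was likewise called in neither hCG list. Loops from Inhba to the anchors that start at 16280001, 16450001, 16650001 and 17425001 were called in both hCG lists, and the loop to the anchor at 16335001 in neither. A further Inhba triangle, through the anchors at 16275001 and 16650001, was found in PMSG replicate 1 and hCG replicate 2, and its arm between these downstream anchors had ratios of 2.16 and 1.75 there. Of the 6 triangles, 1 kept its PMSG-only class in 5 of 7 settings, 4 in 3 and 1 in 2, and none kept it when anchors were merged only where they overlapped.

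Foxl2, a forkhead factor that maintains granulosa cell identity, was at the downstream anchor (chr9:98950001-98965000) of 3 triangles, 1 of which was found in 3 lists. The triangle through chr9:98800001-98820000 was found in all 4 lists, with ratios of 4.42, 5.20, 6.49 and 4.58 on A-B and 4.37, 3.39, 4.67 and 3.90 on B-C. These rest on 19 to 53 contacts in bins of 5 or 10 kb, and the bin size differed between libraries. The triangle through chr9:98710001-98720000 was PMSG-only, although each hCG list held 2 of its sides, the closing loop and 1 arm, and the arm was not the same in both. The closing loop of both triangles, from Foxl2 to chr9:98640001-98650000, was called in all libraries at ratios of 3.54, 4.28, 3.47 and 3.44.

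Of the transcription factors of granulosa cells, 17 of 22 had an end at a loop anchor. Of these, 7 (41.2%) lay at a triangle of at least 2 lists, namely Cebpa, Cebpb, Foxl2, Foxo3, Gata4, Nr5a2 and Runx1, against 11.1% of all 9160 genes with an end at a loop. At a middle anchor there were 4 of 17 (23.5%), against 4.01% of all such genes. Of the genes of the early LH response, 7 of 17 were at a triangle and 5 at a middle, and 2 of these, Cebpb and Runx1, are also on the first list. Foxo3, a forkhead factor, and Nr5a2, a nuclear receptor needed for ovulation, had triangles in 1 list of each group. Of genes of the follicular granulosa cell, 6 of 19 were at triangles (Foxl2, Fst, Gja1, Hsd17b1, Inhba and Nr5a2), but only Fst, the gene of the activin-binding protein follistatin, lay in the middle of one. The matrix genes of the expanding cumulus had 0 of 6, and genes of steroid and cholesterol synthesis 1 of 11, Hsd17b1, which makes estradiol. The lists were chosen with earlier results of these data known, genes with many loops have more chances to lie at a triangle, and no list was tested.

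Markers of the other cells of the ovary were counted in the same way. Theca and stroma markers had 2 of 6 at triangles, Cyp17a1 and Pdgfra. Cyp17a1, the androgen-making enzyme of theca cells, was at the outer anchor of a triangle of all 4 lists through As3mt and Cnnm2. The closing ratios of this triangle were 5.12, 4.13, 3.66 and 5.55, in bins of 5, 10, 10 and 5 kb. Pdgfra, a receptor of stromal cells, was at the end of 2 hCG-only triangles and 1 PMSG-only triangle. Each of these hCG-only triangles kept its class in 2 of 7 settings, and the PMSG-only triangle in 3. None of 7 endothelial, 3 leukocyte and 3 oocyte markers with a loop lay at a triangle, nor did any of 8 housekeeping genes and 6 genes of architectural proteins. The part of other cell types in the triangles was not tested, and fewer cells of a type and fewer contacts per cell cannot be told apart in these libraries.

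Genes of the response to LH also lay at triangles called in all 4 lists, which is no test of equal strength in the groups. Adamts1, a matrix protease of ovulation, was at the outer anchor of 3 triangles of all 4 lists, which joined chr16:85800001-85820000 with pairs of the same 3 downstream anchors up to 1427.5 kb away. The arm over 835 kb had 27 and 12 contacts under PMSG, where 1.52 and 1.24 were expected, and 13 and 19 against 1.79 and 1.597 under hCG. Rgs2, a regulator of G protein signalling, was in the middle of a triangle of all 4 lists between Uchl5 and Rgs13. Its arm to Uchl5 had ratios of 6.58, 8.87, 4.40 and 6.11, in bins of 5, 5, 10 and 5 kb. Beside it an hCG-only triangle had Rgs13 in the middle, with a lowest ratio of 2.94. Further triangles of Adamts1 were found in 1 list of each group or in 3 lists, and a further triangle of Rgs2 in 1 list of each group. The Adamts1 triangles of all 4 lists kept their class in 4 or 5 of 7 settings, and that of Rgs2 in 4. None of them kept it with lists of equal length.

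Among triangles of all 4 lists with a gene in the middle, the highest smallest ratio was that of Sh3gl2, which encodes an endophilin, at 5.25, followed by Snx10, a sorting nexin gene, at 5.06. Sides were called in bins of 5, 10 or 25 kb. The order by ratio, here and in the group-only classes, makes no allowance for bin size. The Snx10 triangle (A chr6:51150001-51225000, B chr6:51575001-51600000, C chr6:51850001-51880000 at Skap2) kept its class in all 7 other settings, as no other of the 60 named triangles of the classes all 4, hCG-only and PMSG-only did. Its arm to Skap2 had 35, 31, 32 and 31 contacts against 3.52, 2.45, 2.56 and 3.05 expected, and its closing loop had 35, 27, 24 and 30 against 6.69, 4.11, 4.58 and 5.93. Adamts8 (4.55), Spty2d1 (3.81), As3mt with Cnnm2 (3.66), Rae1 with Spo11 (3.62), Septin7 (3.58), Iyd (3.54), Ghrhr (3.34) and Ccdc190 with Hsd17b7 (3.31) followed by their smallest ratio. Spty2d1, Iyd and Hsd17b7 had an end at the middle anchor in only 2 of the 4 lists.

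Of the hCG-only triangles with a gene in the middle, Klrb1c followed Gata4, at a smallest ratio of 4.49, then Tmem220 at 3.30 and Rusf1 at 3.09. A gene counted if its end lay at the middle anchor in at least 1 list, and Klrb1c did so in 1 of 2 lists. Irs2, an adaptor of insulin signalling, had an hCG-only triangle that ended at Col4a1. Its arm A-B was called in all lists with 44 and 29 contacts against 9.86 and 6.04 expected for PMSG and 27 and 14 against 6.11 and 2.37 for hCG. The arm from Irs2 to Col4a1 was called in the hCG lists alone, at 68 against 24.1 and 96 against 33.0. Hs3st1, Ankrd46 with Snx31, Rgs13, Mrpl9 with its neighbours Oaz3, Riiad1 and Tdrkh, and a group of histone genes made up the rest of the 10, at 2.81 to 2.97. Oaz3 and Tdrkh were at the middle anchor in 1 of 2 lists. For Rusf1 all 3 sides were called in PMSG replicate 1 too, and Tmem220 had a PMSG triangle at 22.5 kb. The Tmem220 class was kept in 1 of 7 settings.

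A further 5 hCG-only triangles were picked after their values were seen, because their genes are known in ovulation or signalling. Cxcr4, a chemokine receptor gene, lay in the middle between Dars with Mcm6 and a distal anchor. Its closing loop was called in all lists at ratios of 6.73, 8.66, 7.84 and 7.79 and the arm from Cxcr4 downstream at 2.46, 2.73, 4.55 and 7.01, in bins of 25, 25, 10 and 5 kb, so that these ratios are not comparable between libraries. The upstream arm was called in the hCG lists alone, at 103 contacts against 36.8 and 112 against 41.3. Jag1, a Notch ligand gene, had the same form, with an upstream arm of 70 contacts against 30.1 and 80 against 32.2 in the hCG lists alone, and so did Sik1, a salt-inducible kinase gene, with 26 against 6.90 and 35 against 8.50. Tiparp lacked its upstream arm in both PMSG lists, and Ptger4, a prostaglandin E receptor gene, stood at an outer anchor with both distal loops called in every list. Only the arm between the distal anchors of Ptger4 was limited to the hCG lists, at 1.84 and 2.18. Tiparp and Ptger4 each also had a triangle in both PMSG lists and 1 hCG list. That of Tiparp had Lekr1 in the middle, and that of Ptger4 had the same middle anchor and another distal one.

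Of the 24 named hCG-only triangles, 15 had their closing loop in both PMSG lists, and for 13 of these an arm was in neither. Of the 19 named PMSG-only triangles, 10 had their closing loop in both hCG lists, and for 9 an arm was in neither. Where the closing loop is called and the triangle is absent, an arm is missing unless loops met different merged anchors. The arm counts therefore follow largely from the class. Named triangles were picked, and several of those at Inhba share loops. The closing loop was called for 74.0% and 66.2% of all 77 hCG-only triangles in PMSG replicates 1 and 2. For all 52 PMSG-only triangles it was 51.9% and 55.8% in hCG replicates 1 and 2.

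The PMSG-only triangles with a gene in the middle were led by Fgfr2, a fibroblast growth factor receptor gene, at a smallest ratio of 5.04. Its triangle spanned 825 kb (A chr7:129645001-129655000, B chr7:130250001-130280000, C chr7:130470001-130480000). The closing loop had 16 and 24 contacts where 1.86 and 4.21 were expected under PMSG, and was called in neither hCG list, whereas the arm A-B was called in all 4 at ratios of 7.31, 7.004, 9.15 and 7.91. Plagl1, a zinc-finger gene, followed at 3.42. Its arm to Sf3b5 was called only in the PMSG lists, with 18 and 36 contacts against 4.03 and 10.5, and its other sides reached ratios of 9.89 to 12.2 in the hCG lists. Pcdh8 (3.30), Il20ra (3.08), Ereg (2.65), Sema3c (2.55), Isl1 (2.497), Ggct with Nod1 (2.45), Inip with E130308A19Rik (2.42) and Il12a (2.38) completed the 10. The smallest ratio of each of these lay in a 25 kb bin, and those of Fgfr2 and Plagl1 in 10 kb bins. Ratios of different bin sizes are not comparable, so this is no order of loop strength. Like Ereg, Nod1, E130308A19Rik and Il12a had an end at the middle anchor in 1 of 2 lists. For Pcdh8 and Inip all 3 sides were also called in hCG replicate 2, where the loops met different merged anchors.

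Histone genes shared the most middles. The 14 histone genes of 1 anchor on chromosome 13, among them H1f3, H2ac10 and H4c8, were in the middle of 5 distinct triangles, 2 of which were found in 2 or more lists. Skap2 reached the same number, and Snx10 was in the middle of 4. An hCG-only triangle joined 3 histone clusters (A chr13:21700001-21750000, B chr13:22020001-22050000, C chr13:23520001-23585000) over 1827.5 kb. Its arms were called in all lists, A-B at ratios of 6.76, 4.87, 5.18 and 6.33 and B-C at 4.82, 4.95, 4.86 and 4.88. The closing loop was called in the hCG lists alone, with 41 contacts against 14.3 and 49 against 14.6. Histone clusters hold near-identical genes, and reads of such copies can be placed uncertainly.

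Gene positions were not used to find triangles, so gene ends at anchors could be tested within each library. Middle anchors had a protein-coding gene end within 2.5 kb more often than outer anchors. The shares at middle anchors were 49.6%, 48.9%, 50.9% and 52.6% in PMSG replicates 1 and 2 and hCG replicates 1 and 2, and at outer anchors 48.2%, 44.8%, 48.8% and 48.3%. The difference was 2.99 ± 1.45 percentage points (SD, n = 4 libraries), positive in 4 of 4 (in fewer under 4 of the alternatives), with p = 0.125 in the exact sign-flip permutation test (two-sided), the smallest that 4 libraries allow. With a gene end within 10 kb of the anchor midpoint, which does not depend on anchor width, it was 2.31 points, again in 4 of 4 libraries. Against anchors in no triangle, of which 39.2%, 37.0%, 40.4% and 40.02% had a gene end, middle anchors were higher by 11.3 points. Those anchors were narrower, with a median of 10 kb against 25 kb, and with the midpoint measure the difference was 0.25 ± 1.28 points (SD, n = 4), of both signs (exact sign-flip permutation test, two-sided, p = 0.75). The excess of middle anchors over anchors in no triangle was therefore not seen with the measure that does not depend on width.

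**Figure D5:**
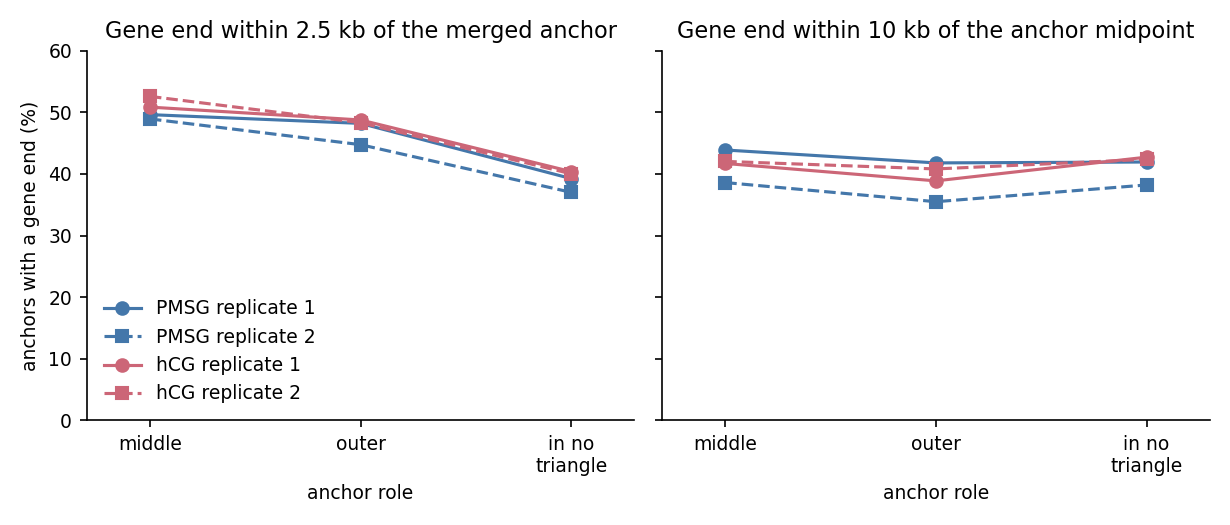
Share (%) of middle, outer and other merged loop anchors with a protein-coding gene end within 2.5 kb of the anchor (left) and within 10 kb of its midpoint (right), 1 line per library. Middle anchors lie above outer anchors in all 4 libraries in both panels, and above anchors in no triangle in the left panel only.

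Promoter sequences at the anchors were compared by motif, as a description. Promoter windows at middle anchors numbered 143 to 276 per list. A GC box was found in 55.2% to 62.3% of them, in 49.4% to 55.2% of those at outer anchors, in 54.5% to 57.7% of those at anchors in no triangle and in 46.7% of all 21045 windows. The core of the CTCF motif was found in 10.5% to 13.9% at middle anchors, 9.26% to 11.7% at outer anchors, 12.9% to 13.5% at other anchors and 9.98% of all windows. A TATA box was in 14.8% to 16.5% at middle and 12.7% to 18.1% at outer anchors, against 8.19% to 9.14% at other anchors and 12.7% of all windows. For CCAAT the ranges were 40.9% to 47.6%, 39.6% to 43.1% and 35.4% to 36.6%, against 38.5% of all windows. The RUNX letters were in 11.9% to 16.5% of windows at middle anchors and 14.7% of all, the C/EBP letters in 6.52% to 10.5% and 10.3%, and the GATA letters in 7.66% to 9.26% and 9.68%. The cAMP response element letters were in 24.1% to 26.8% at middle anchors, 28.4% to 31.5% at outer anchors, 25.8% to 28.6% at other anchors and 23.8% of all windows.

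The closing loop was set against the arms of the same triangle by its ratio of observed to expected contacts. The median difference in log2 ratio, closing loop minus the mean of both arms, was -0.07 and -0.06 in the PMSG lists and 0.14 and 0.07 in the hCG lists. The mean was 0.02 ± 0.10 (SD, n = 4; exact sign-flip permutation test, two-sided, p = 0.75), and it was -0.02 without hCG replicate 1 and 0.21 with anchors merged only where they overlap. The hCG-only triangles had median log2 ratios of 2.26 and 2.40 for the closing loop and 1.82 to 2.14 for the arms. In triangles of all 4 lists the closing loop had 2.18 to 2.45 and the arms 2.33 to 2.64. A side with several loops took the one of highest ratio, and the ratio also moves with span, so closing loops and arms are not matched in these values.

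Loop strength was compared between the groups where counts allowed, at the 435 pixels called at the same position and bin size in all 4 lists. This choice leaves out every pixel that a list lacks, among them the missing sides of group-only triangles. The test therefore cannot speak to those sides. With edgeR's quasi-likelihood test and the donut expectation as offset, 0% of the 435 passed an adjusted p of 0.05, and 29 had an unadjusted p under 0.05. DESeq2 also called 0, with 1 under an unadjusted 0.05. Of the 435 pixels, 137 were sides of triangles, 11 of them with an unadjusted p under 0.05. Their median log2 fold change of hCG over PMSG was 0.10, beside 0.12 over all 435, and 87 were higher and 50 lower in hCG. Without PMSG replicate 1 the median of the sides was -0.01, with 67 higher and 70 lower, and without PMSG replicate 2 it was 0.19, with 104 and 33. When library totals replaced the expectation, the median over all pixels was 0.01, so this shift depends on the scaling. A side at Meis2, a homeobox gene with both ends of the loop at it, had 37 and 14 contacts under PMSG, where 3.88 and 1.84 were expected, and 37 and 47 against 2.65 and 2.97 in the hCG lists. Its log2 fold change was 0.75 (SE 0.23) with an adjusted p of 0.55 in edgeR, and it was picked after its values were seen. The sides of named triangles had as few as 12 contacts, for which the exact Poisson 95% interval is 6.20 to 21.0, and a median of 27 (17.8 to 39.3). These intervals cover counting error only, and a single ratio is imprecise at such depth.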

How the data were processed

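Micro-C loops of 4 granulosa cell libraries were analysed, grouped by their titles. The submitters' processing notes name BWA, Juicer and mm10, and per the file headers the lists came from juicer_tools 1.22.01. No source used here gives the loop caller's settings. Lists were called per library, in bins of 5, 10 and 25 kb, with technical replicates not given apart. The deposited observed contact count of a pixel is a whole number, not normalized. The deposited expected signal comes from 4 local neighbourhoods, and each has a deposited q-value, all below 0.1. The authors' score, the number of collapsed pixels, was not used.

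Triangles were found in Python 3.11.15 (numpy 2.4.6, pandas 2.3.3, scipy 1.17.1, matplotlib 3.10.9), and finding and pooling were tested on simulated lists. Sequencing depth is not in the lists, and a longer list can hold more triangles. Genes were 21631 RefSeq protein-coding genes on GRCm38.p6, by either annotated end, since the gene table has no strand or exons. Promoter windows were given for 17274 of them. Loop strength was fitted with edgeR 4.0.16 in R 4.3.3, and DESeq2 1.42.0 was an alternative. Benjamini-Hochberg adjustment was over all 435 pixels.

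The members and gene lists were chosen with earlier results of these data known. Named genes were those at the middle of the 10 triangles of highest smallest ratio of observed to donut expected contacts over sides and lists, in each of 3 classes (all 4 lists, hCG-only, PMSG-only), list members at triangles of at least 2 lists, and genes at most middles (5 were sought, but 15 genes tied at 5 triangles). Further names were chosen after their values were seen, as stated beside them. Alternatives were other merge and match distances, stricter or equal lists, finer bins, gene windows, another expectation, a replicate block and leaving out each library. Promoter starts in place of gene ends were added after seeing the data.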

Additional observations from a re-analysis of the deposited data

Results flagged for a closer look

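In 2 measures compared within libraries, both libraries of one group lay on one side of 0 and both of the other group on the opposite side. The first is the median log2 ratio of the closing loop minus that of the arms, at -0.06 ± 0.01 in PMSG and 0.10 ± 0.05 in hCG (SD, n = 2 each). The difference of hCG minus PMSG was 0.17, with p = 0.33 in an exact permutation test (two-sided), the smallest that 2 libraries against 2 allow. The second is the share of middle anchors with a gene end within 10 kb of the midpoint, less that of anchors in no triangle. It was 1.17 ± 1.10 percentage points in PMSG and -0.68 ± 0.49 in hCG, a difference of -1.85 (exact permutation test, two-sided, p = 0.33). Both PMSG values of the first measure were positive too with anchors merged only where they overlap (0.13 and 0.18), with bins of 5 and 10 kb (0.08 and 0.03) and with the bottom left expectation (0.02 and 0.05), so that the opposite signs were not kept there. The cause was not tested.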

How the results depend on the processing

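The median span difference kept its sign under each alternative run (-66.9 to -24.4 kb), as did the excess of gene ends at middle over outer anchors (0.758 to 5.78 points, with 5.404 for promoter starts), neither passing a threshold. The hCG and PMSG spans overlapped with overlap merging alone, and the gene-end excess was negative in PMSG replicate 2 with overlap merging (-0.43) and with bins of 5 and 10 kb (-0.20), in hCG replicate 1 with equal lists (-1.80), and in PMSG replicate 1 (-0.14) and hCG replicate 1 (-0.80) with the stricter FDR. The difference in triangles per 1000 loops turned to -1.74 with anchors merged only where they overlap, -1.08 with all FDR values at most 0.01 and -3.52 with lists of equal length, and ranged from -5.62 (without PMSG replicate 2) to 13.2 (without PMSG replicate 1) when 1 library was left out. The closed share difference then ranged from -1.52 to 0.763 points, with 0.171 without hCG replicate 1, and other settings gave -5.04 (overlap merging) to -0.326 (bins of 5 and 10 kb). The closing loop minus arms value was -0.0017 with merging within 25 kb, -0.0078 with the stricter FDR, and -0.021 to 0.049 with 1 library left out (negative without hCG replicate 1), but 0.21 with overlap merging, 0.13 with bins of 5 and 10 kb and 0.083 with the bottom left expectation, where all 4 libraries were positive. With overlap merging alone, distinct triangles numbered 477, of which 8 were in all lists, 16 hCG-only and 17 PMSG-only. The stricter FDR gave 30, 35 and 29 of these classes, bins of 5 and 10 kb gave 21, 24 and 23 of 488, lists of equal length gave 46 in all lists and 36 hCG-only, and matching within 10 kb gave 57 and 50. With 1 library left out a class rests on a single list, and hCG-only triangles ranged from 90 to 284 and PMSG-only triangles from 77 to 307. Strength calls ranged from 0 to 2 pixels and from 0 to 1 triangle sides, where the lone library is assumed to vary like the other group. Same-numbered libraries shared only a number (correlation of deviations -0.016), and a replicate block gave the same differences of 3.78, -0.381 and -51.9 (exact sign-flip permutation, p = 1, 1 and 0.5) and 0 strength calls. Of 24 named hCG-only triangles 8 kept their class in 5 or more of 7 settings, of 19 PMSG-only triangles 4 and of 17 in all 4 lists 4. A missing side has no contact count in the lists, so what depth contributes to it was not tested.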

Other observations

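Regulators of embryonic development, which are not marker genes of granulosa cells, were also found at triangles. Of 28 such genes with a loop, 7 lay at a triangle of at least 2 lists (25%, against 11.1% of all genes with a loop), and Gata3, Pax3 and Sox9 were in the middle of one. Pax3, a paired-box gene, was in the middle of a triangle of all 4 lists that ended at Farsb and Sgpp2, whose closing loop had 15 and 21 contacts under PMSG, where 2.40 and 4.72 were expected, and 24 and 29 against 4.86 and 5.66 in the hCG lists. Lhx9, a LIM homeobox gene of the early gonad, was at the outer anchor of another, with a lowest ratio of 2.36. Gata3 had an hCG-only triangle over 1250 kb, of which PMSG replicate 1 held 1 arm and PMSG replicate 2 no side. The anchors of Hoxd13 and its Hoxd neighbours, of Nkx2-2 and of Sox9 had triangles in 3 lists, and that of Six2 in 1 list of each group. This count was chosen with the results known and was not tested.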
